A study of Rattus norvegicus with 16 samples.

Results

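MHC class II antigen presentation is described here through 9 genes in the whole blood of 16 saline control rats. They were found by symbol in the gene lists of the count files. They are RT1-Da, RT1-Db1, RT1-Ba, RT1-Bb, RT1-DMa, RT1-DMb, RT1-DOb, Cd74 and Ciita, and all 9 are among the 18031 genes listed for every library. The animals were adult male Sprague-Dawley rats of 85 to 90 days, an outbred stock. Each received 4 saline injections of 1 ml/kg, 2 h apart, without food or water meanwhile, and blood was drawn from the heart 3 h after the last injection. RNA was depleted of alpha and beta globin mRNA before polyadenylated RNA was sequenced. All 16 libraries carry the same group label, so the comparisons are relations among animals and not treatment effects. The animals are separate individuals, so the spread among libraries includes the spread among animals.

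MHC class II molecules present peptides from endocytosed proteins to CD4+ T cells. RT1 is the MHC of the rat: RT1-D corresponds to HLA-DR and RT1-B to HLA-DQ of humans, and each surface molecule pairs an alpha chain (RT1-Da, RT1-Ba) with a beta chain (RT1-Db1, RT1-Bb). Cd74, the invariant chain, occupies the groove and guides new molecules to endosomes. There RT1-DM, made of RT1-DMa and RT1-DMb, exchanges the last Cd74 fragment for peptides, and RT1-DO, which includes RT1-DOb, restrains RT1-DM. Ciita is the coactivator that assembles on class II promoters and does not bind DNA itself. In blood, B cells carry these molecules constitutively, and monocytes and dendritic cells carry them as well.

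Libraries held 21466776 to 31189549 counts, so the smallest detectable amount, taken as 3 counts, was 0.0962 to 0.140 CPM. The lowest raw count of any of the 9 genes in any library was 138, for RT1-DOb. Globin entries took 2.96% to 15.5% of the counts. The file names carry 6 codes, called run codes or runs here, though no label says that they mark sequencing runs. Code A was that of controls 1 to 3, B of controls 4, 5, 7, 8 and 10, and C of controls 6 and 9. Code D was that of controls 11 to 14, E of control 15 and F of control 16. Control 2 stood apart from the rest with a mean Pearson's r of 0.873 to the other libraries, over log2 levels of genes that averaged 1 normalized count or more, followed by control 8 at 0.924, and the remaining libraries had 0.937 to 0.956. Control 12 was set apart in earlier work on these libraries, while its mean r here, 0.937, lay within the range of the remaining libraries. Results are therefore also given without controls 2, 8 and 12.

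Promoters of class II genes are known for a shared module in which RFX binds an X box and NF-Y binds a Y box further downstream. RefSeq promoter windows (build GRCr8, 250 bases before to 50 bases after the start of a gene) were present for 7 of the 9 genes. RT1-DMb and Ciita had no entry. The stretches below are shown because they hold the Y box core, and in 5 of 6 genes also ACNGATG, in promoters of genes whose levels are compared here. Letters are capitals at ACNGATG, an end of the X box in which N is any base, and at ATTGG, the core of the Y box.
RT1-Da (chr20:4515321-4515385, plus strand): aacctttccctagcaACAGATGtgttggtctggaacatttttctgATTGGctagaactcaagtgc
RT1-Db1 (chr20:4560223-4560287, minus strand): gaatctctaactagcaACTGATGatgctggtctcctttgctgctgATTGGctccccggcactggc
RT1-Ba (chr20:4576969-4577033, plus strand): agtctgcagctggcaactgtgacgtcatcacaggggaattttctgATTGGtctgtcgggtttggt
RT1-Bb (chr20:4604160-4604224, minus strand): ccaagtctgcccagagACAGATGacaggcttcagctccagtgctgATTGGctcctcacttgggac
RT1-DMa (chr20:4712380-4712444, minus strand): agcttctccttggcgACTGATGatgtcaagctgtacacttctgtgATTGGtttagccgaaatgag
RT1-DOb (chr20:4627587-4627651, minus strand): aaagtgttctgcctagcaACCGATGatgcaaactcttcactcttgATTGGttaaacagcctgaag

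Both motifs, on the same strand and with starts 25 to 35 bases apart, occurred in the windows of RT1-Da, RT1-Db1, RT1-Bb, RT1-DMa and RT1-DOb. In these 5 genes the starts lay 27 to 30 bases apart. Among all 33469 RefSeq windows the same arrangement occurred in 28, or 0.0837%. The stricter pair ACAGATG and ATTGG was found in RT1-Da and RT1-Bb and in 11 windows of all, or 0.0329%. On either strand, ATTGG alone was present in all 7 windows and in 37.5% of all windows, ACNGATG alone in 5 of 7 and in 10.2%, and ACAGATG alone in 2 of 7 and in 5.29%. ACAGATG is contained in ACNGATG, and the wider motif was chosen after the windows had been seen. RT1-Ba had ATTGG without ACNGATG, and Cd74 had ATTGG on the opposite strand only. Other forms of the X box were not searched. Of the 9 class I presentation genes with a window, 0 held ACNGATG. These matches describe the letters of the reference sequence and not the binding of any factor.

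Expression of the class II genes varied between animals by factors of 2.41 to 6.26. Values are normalized counts, that is, rounded counts divided by DESeq2 size factors, and they depend on transcript length, so they are not compared between genes. Among the alpha and beta chains, RT1-Da (ENSRNOG00000032844) ranged from 4434 in control 8 over a median of 7222 to 11336 in control 5, with a mean of 7817 ± 2464 (SD, n = 16). RT1-Db1 (ENSRNOG00000033215) ranged from 1640 in control 8 over a median of 3751 to 6031 in control 2. RT1-Ba (ENSRNOG00000000451) ranged from 2392 in control 8 over a median of 4065 to 6539 in control 2. These 3 chains thus shared their lowest library. RT1-Bb (ENSRNOG00000032708) also had its lowest value, 912, in control 8, with a median of 1902 and a highest value of 3040 in control 6.

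Cd74 (ENSRNOG00000018735) ranged from 11828 in control 8 over a median of 24253 to 47880 in control 2, with a mean of 25821 ± 9314 (SD, n = 16). The transactivator gene Ciita (ENSRNOG00000002659) varied most among the 9, from 226 in control 8 over a median of 576 to 1412 in control 6. Its coefficient of variation was 44.3%, above that of 83.2% of the 8672 genes that averaged 100 normalized counts or more. Of the editing molecules, RT1-DMb (ENSRNOG00000049491) ranged from 350 in control 8 over a median of 767 to 962 in control 3. RT1-DMa (ENSRNOG00000047854) ranged from 216 in control 7 over a median of 413 to 521 in control 2. Both had a coefficient of variation of 24.2%, close to the median of 24.8% over the 8672 genes. RT1-DOb (ENSRNOG00000000454) ranged from 179 in control 8 over a median of 348 to 598 in control 6, with a coefficient of variation of 36.3%. The remaining 5 genes had coefficients of variation of 30.8% to 36.1%.

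RT1-DMa and RT1-DMb are each listed as 2 entries with identical values in every library, so each entry holds an equal part of the reads and the printed counts are about 50% of the total. The rule took the entry with the highest total, and for a tie the lower identifier was used. RT1-Db1 has a near copy, RT1-Db2, and the division of reads between them is uncertain. MHC genes also differ between outbred animals while all reads were aligned to 1 reference, and the effect of this on the counts was not tested.

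**Figure D1:**
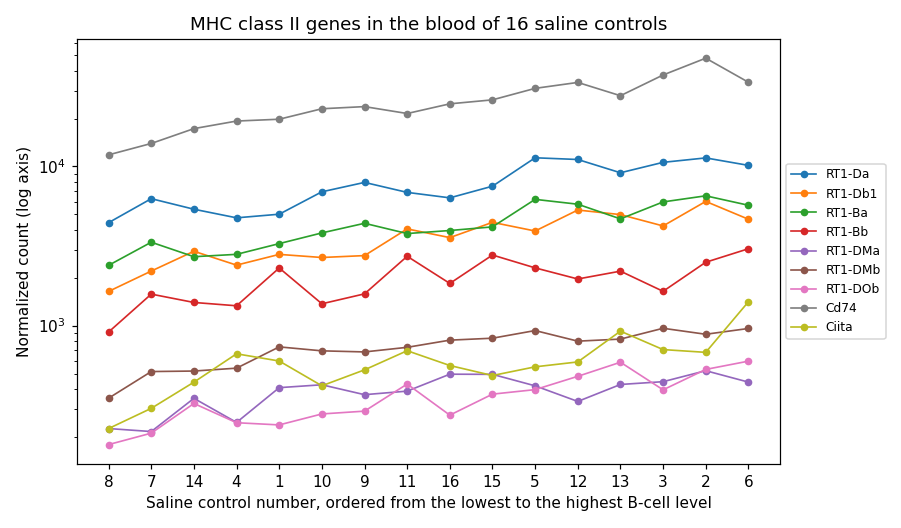
Normalized counts (log axis) of the 9 class II genes in each of the 16 saline controls, which are ordered along the horizontal axis by their B-cell level. Each line joins the values of 1 gene; control 8, at the left, had the lowest value of 8 of the 9 genes.

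Control 8 had the lowest value of 8 of the 9 genes, and control 7 had that of RT1-DMa, where control 8 was also among the 3 lowest. The highest values were divided among controls 2 (4 genes), 6 (3 genes), 3 and 5 (1 gene each). Controls 8 and 6 also had the lowest and the highest B-cell level, which is the mean log2 level of 7 B-cell genes, among them Cd22, Cd79b, Ms4a1, Pax5, Blk and Bank1. This level had a median of 9.94 and ran from 9.15 to 10.8, a 3.21-fold range. None of the 9 genes is part of it. Control 8 also had the lowest T-cell level, 9.60, so that library was low for both kinds of lymphocyte marker.

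All 9 class II genes rose with the B-cell level. This comparison asks whether animals with more B-cell RNA also had more class II RNA, and its values are slopes, the log2 change of a gene per doubling of the B-cell level. By edgeR's quasi-likelihood test with Benjamini-Hochberg adjustment over 12754 genes, 9 of 9 rose with an adjusted p under 0.05, beside 377 genes, or 2.96%, that rose among all genes tested. The median slope of the 9 genes was 0.90 and that of all genes 0.05. Members and B-cell genes come from the same libraries. The members were scaled by edgeR and the B-cell level by DESeq2 size factors, both from the counts of these libraries. In bulk blood, fewer B cells and less RNA per cell cannot be told apart.

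Ciita had a slope of 1.18 ± 0.19 (SE, n = 16; adjusted p = 0.00253), and Cd74 had a slope of 1.15 ± 0.14 (adjusted p = 0.000215). A slope of 1 means that a gene doubled when the B-cell level doubled. RT1-DOb, a chain of the RT1-DM inhibitor, had 1.08 ± 0.15 (adjusted p = 0.000935) and the beta chain RT1-Db1 1.05 ± 0.17 (adjusted p = 0.00246). The alpha chains had slopes of 0.90 ± 0.15 for RT1-Ba (adjusted p = 0.00318) and 0.88 ± 0.17 for RT1-Da (adjusted p = 0.00895). Lower slopes were found for RT1-DMb, 0.79 ± 0.13 (adjusted p = 0.00318), RT1-Bb, 0.73 ± 0.21 (adjusted p = 0.0486), and RT1-DMa, 0.66 ± 0.17 (adjusted p = 0.0314). The differences between these slopes were not tested.

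**Figure D2:**
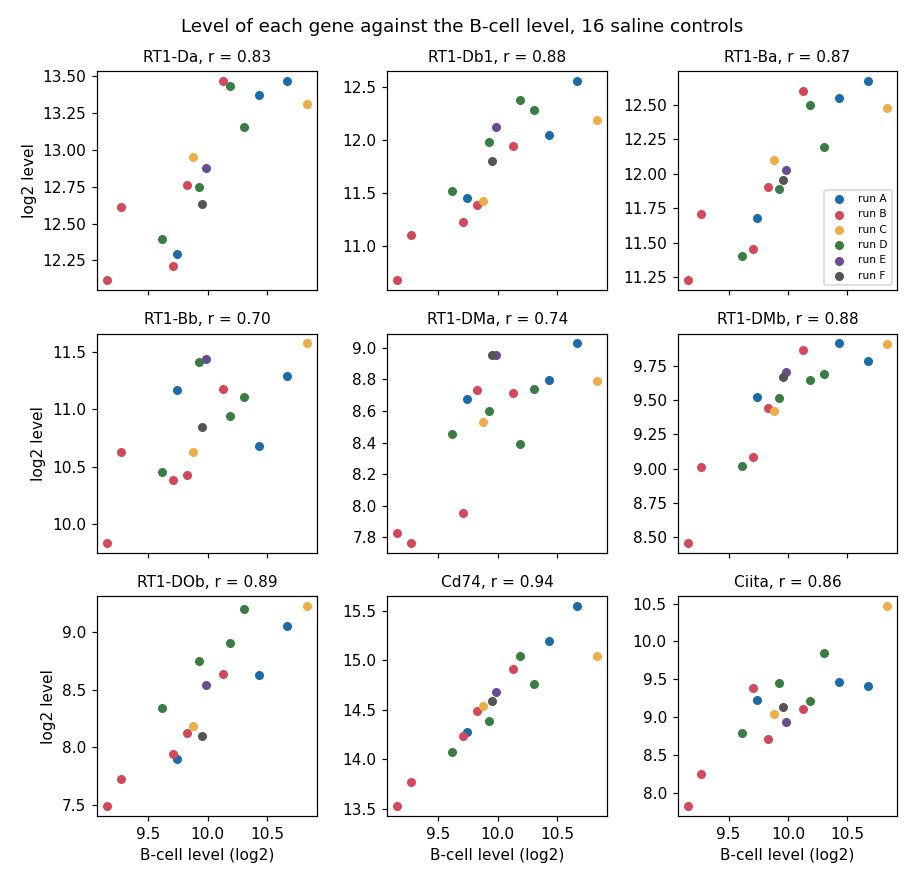
Log2 level of each of the 9 class II genes (vertical axes) against the B-cell level (horizontal axis, log2) in the 16 saline controls, coloured by run code, with Pearson's r above each panel. Points rise from the lower left in each panel, most closely for Cd74 (r = 0.94) and least for RT1-Bb (r = 0.70).

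RT1-Db1, RT1-Ba, RT1-DMb, RT1-DOb, Cd74 and Ciita passed the threshold in each of the 16 fits that left out 1 control. RT1-Bb lost its call in 10 of these fits, RT1-DMa without control 2, 3, 7 or 8, and RT1-Da without control 8 (adjusted p = 0.0574). With run code as a factor 7 of 9 genes passed, beside 762 of 14212 genes, or 5.36%, 120 of which rose. RT1-Bb (0.61, adjusted p = 0.213) and RT1-DMa (0.55, adjusted p = 0.111) did not pass. Without controls 2, 8 and 12 the slopes were 0.58 to 1.22, and 2 of 9 genes, RT1-DOb and Ciita, passed, beside 47 of all genes. The controls left out include the lowest B-cell level, 9.15 in control 8, and a level of 10.7 in control 2. That fit thus had fewer libraries and a narrower range of B-cell levels. Scaling by total counts moved the median slope of all genes from 0.05 to 0.40 and gave 5647 rising and 69 falling calls, against 377 rising and 409 falling in the edgeR scaling. The 9 genes then had slopes of 0.76 to 1.23, all above that shift.

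Pearson's r between the log2 level of each gene and the B-cell level was 0.942 for Cd74, 0.893 for RT1-DOb, 0.882 for RT1-Db1, 0.875 for RT1-DMb, 0.870 for RT1-Ba, 0.858 for Ciita, 0.830 for RT1-Da, 0.744 for RT1-DMa and 0.699 for RT1-Bb (n = 16). In a two-sided permutation test adjusted over 12754 genes, 8 of 9 passed, where 1.8% of all genes passed with a positive r. RT1-Bb was the exception (permutation p = 0.00282, adjusted p = 0.0598). The raw permutation p was 1e-05, the smallest that these permutations can give, for Cd74, RT1-Db1 and RT1-Ba, 2e-05 for RT1-DOb and RT1-DMb, 4e-05 for Ciita, 6e-05 for RT1-Da and 0.00096 for RT1-DMa, and the adjusted p of these 8 genes ran from 0.00345 to 0.0464. Spearman's rho was 0.974 for Cd74, 0.926 for RT1-DMb, 0.903 for RT1-Ba, 0.900 for RT1-Db1, 0.876 for RT1-DOb, 0.865 for RT1-Da, 0.744 for Ciita, 0.741 for RT1-DMa and 0.715 for RT1-Bb. By rho 6 of 9 passed, where 0.815% of all genes did. Their permutation p was 1e-05 or 2e-05 and their adjusted p 0.00425 to 0.00709. The other 3 did not pass: Ciita (permutation p = 0.00126, adjusted p = 0.0929), RT1-DMa (0.0015 and 0.104) and RT1-Bb (0.00237 and 0.13).

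The relation was also examined without controls 6 and 8, whose B-cell levels lie farthest from the median. Then r was 0.972 for Cd74, 0.882 for RT1-Db1, 0.848 for RT1-Ba, 0.848 for RT1-DMb, 0.830 for RT1-DOb, 0.802 for RT1-Da, 0.716 for Ciita and 0.704 for RT1-DMa (n = 14, raw permutation p from 1e-05 to 0.00523). For RT1-Bb r fell to 0.461 (permutation p = 0.097, n = 14), so its r did not hold without those 2 libraries, while its rho was 0.574 (permutation p = 0.035, adjusted p = 0.537). With adjustment over all genes 4 of 9 still passed, Cd74, RT1-Db1, RT1-Ba and RT1-DMb. The share of all genes that passed without controls 6 and 8 is not given here. After centring within run codes, r was 0.983 for RT1-DOb, 0.953 for RT1-Db1, 0.937 for Cd74 and 0.616 to 0.849 for the other 6 genes, and 8 of 9 passed. RT1-Bb was again the exception (permutation p = 0.0109, adjusted p = 0.0502). Before centring its lower permutation p, 0.00282, had a higher adjusted p, 0.0598. Low p-values were thus more common over all genes after centring. The share of all genes that passed then is not given here. Controls 15 and 16, alone in runs E and F, carry no information after centring, and the permutations ignored the run codes. These p-values may therefore be too low.

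The B-cell level was next fitted together with T-cell genes, the markers of the other large class of lymphocytes. The T-cell level, the mean log2 level of Cd2, Cd3d, Cd3e, Cd3g, Cd5, Cd28 and Cd247, had an r of 0.271 with the B-cell level (permutation p = 0.311, adjusted over 4 marker levels 0.927; rho = 0.212, permutation p = 0.43). In the fit with both levels, 7 of 9 class II genes rose with the B-cell level, beside 1.53% of 13008 genes. Cd74 had a slope of 1.08 ± 0.13 (adjusted p = 0.000218) and RT1-DOb one of 1.11 ± 0.16 (adjusted p = 0.00117). RT1-Bb (0.80 ± 0.21) and RT1-DMa (0.68 ± 0.17) both had an adjusted p of 0.0607. On the T-cell level itself 0 of 9 passed the edgeR test, where 4.21% of all genes passed. At an unadjusted p under 0.05 it was also 0 of 9, where 23.7% of all genes lay under it. These slopes ran from -0.49 ± 0.29 for RT1-Bb to 0.30 ± 0.18 for Cd74. With run code as a further factor 2 of 9 genes, RT1-Db1 and RT1-DOb, rose with the B-cell level. Of all 14205 genes 19, or 0.134%, were called in that fit. Cd74 had a slope of 1.02 (adjusted p = 0.0505).

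On the monocyte level 0 of 9 class II genes passed. This level averaged 6 genes, among them Csf1r, Cd14, Cd68, Cx3cr1 and Lyz2, and ran from 8.51 to 10.1. The edgeR test called 2 of 12766 genes, or 0.0157%, so it had few calls to offer, and DESeq2 called 216 genes, or 1.69%, and also 0 of the 9. At an unadjusted p under 0.05 the edgeR test found 1 of 9, RT1-DMa, with a slope of 0.41 ± 0.19 (p = 0.0445, adjusted p = 0.472). Of all genes 10.4% lay under this unadjusted threshold, so 1 of 9 was near the background. RT1-Bb had 0.27 ± 0.24, and the lowest slope was -0.23 ± 0.26 for RT1-Da. Under total count scaling all 9 slopes were above 0, from 0.19 to 0.62, with a median of all genes of 0.27, so no direction is given for them.

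**Figure D3:**
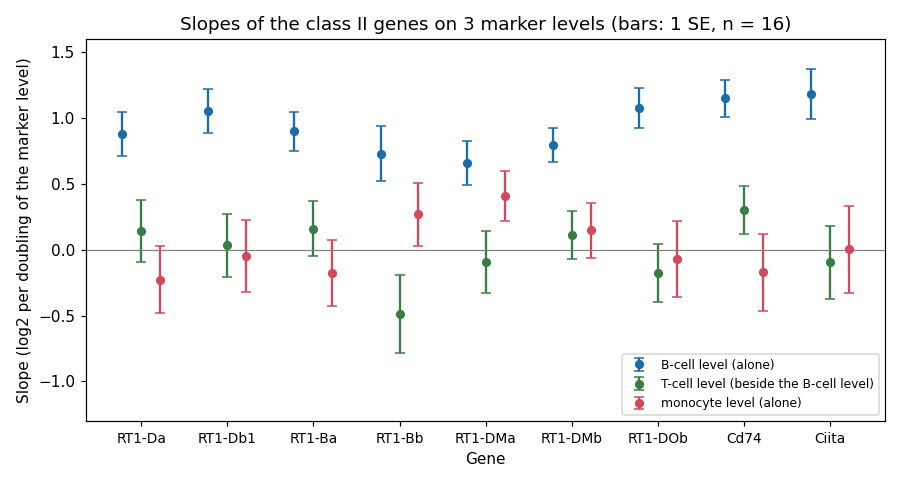
Slopes (log2 per doubling of the marker level, points, with bars of 1 SE, n = 16) of the 9 class II genes on the B-cell level, on the T-cell level in a fit beside the B-cell level, and on the monocyte level. Slopes on the B-cell level lie between 0.66 and 1.18, and those on the other levels between -0.49 and 0.41.

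Markers of other cell types were set beside the B-cell level in the same fit. The shares of all genes to read these counts against were 26.4% at an unadjusted p under 0.05, 13% by DESeq2, 4.52% by limma-voom, 5.36% with run code as a factor and 44.8% under total count scaling. Of the T-cell genes 0 of 7 passed (slopes 0.12 to 0.35, 0 at an unadjusted p under 0.05, and 0 by DESeq2 or limma-voom). Under total count scaling all 7 passed, with slopes of 0.49 to 0.65 where the median of all genes was 0.40. Of the monocyte genes 0 of 6 passed (slopes -1.22 to 0.83, 3 at an unadjusted p under 0.05, 1 by DESeq2 and 0 by limma-voom). With run code as a factor Cd14, a receptor for lipopolysaccharide, fell (slope -1.64, adjusted p = 0.0319). Of the dendritic cell genes 4 of 6 had enough counts, and Flt3, a growth factor receptor of dendritic cell precursors, rose (1.42 ± 0.35, adjusted p = 0.0301) at a mean of 29.7 normalized counts, while limma-voom gave an adjusted p of 0.0579. The other 3 did not pass: Clec10a, the most abundant at a mean of 295, had -0.86 ± 0.42 (adjusted p = 0.2), Xcr1 -0.26 ± 0.46 and Clec9a 0.26 ± 0.34, the last 2 at means of 27.0 and 27.1. Of the plasma cell genes 1 of 5 passed: Xbp1, a factor of secretory cells that is also expressed elsewhere, fell (-1.76 ± 0.46, adjusted p = 0.036), with an adjusted p of 0.0591 by limma-voom and 0.13 under total count scaling. The list had 3 genes at an unadjusted p under 0.05 and 2 by DESeq2. Igj, the joining chain of secreted immunoglobulins, had 0.95 ± 0.28 (adjusted p = 0.0534), and it passed by DESeq2 (adjusted p = 0.0194) and under total count scaling (1.08, adjusted p = 0.00137). Tnfrsf17, a survival receptor of plasma cells, had 1.37 ± 0.59 (adjusted p = 0.154) at a mean of only 8.89 normalized counts. The part of these cells in the class II values was not tested. Of the B-cell genes that the study used and the level does not contain, Cd180 (0.94 ± 0.21, adjusted p = 0.0195) and Ly86 (0.73 ± 0.15, adjusted p = 0.0148) rose.

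Other parts of the class II pathway gave mixed results. All 3 further class II symbols rose with the B-cell level: RT1-DOa, the partner chain of RT1-DOb (1.11 ± 0.15, adjusted p = 0.000585), RT1-Db2 (1.13 ± 0.20, adjusted p = 0.00534) and RT1-Ha (1.46 ± 0.32, adjusted p = 0.0197). RT1-Db2 and RT1-Ha averaged 41.4 and 54.9 normalized counts. Of the lysosomal processing genes, the proteases Ctss, Ctsl1, Ctsb, Ctsd, Ctsh and Lgmn and the reductase Ifi30, 0 of 7 passed. Their slopes ran from -0.78 to 0.46, with 2 at an unadjusted p under 0.05, 1 by DESeq2 and 0 by limma-voom, beside the 26.4%, 13% and 4.52% of all genes given above. Of the promoter factors Rfx5, Rfxap, Rfxank, Nfya, Nfyb, Nfyc and Creb1 0 of 7 passed, with 2 at an unadjusted p under 0.05, again near the background, and 0 by DESeq2 or limma-voom. Their slopes ran from -0.79 to 0.41, with 3 of 7 above 0, against 6 of 7 under total count scaling. Creb1 had the lowest, -0.79 ± 0.28 (adjusted p = 0.0893), and did not pass under total count scaling (-0.16, adjusted p = 0.595). Rfx5 had 0.41 ± 0.14 (adjusted p = 0.0813), and it passed under total count scaling (0.71, adjusted p = 0.00149). Under that scaling 3 of 7 passed in each of these lists, beside 44.8% of all genes.

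Among the genes of surface turnover and costimulation 1 of 5 passed. Cd40, the receptor through which T cells activate B cells, rose (0.79 ± 0.18, adjusted p = 0.0233). The interferon gamma pathway is a known inducer of Ciita. Of its 7 genes 2 fell, beside 3.21% of all genes: the receptor chain Ifngr2 (-1.53 ± 0.35, adjusted p = 0.0231) and the kinase Jak2 (-0.70 ± 0.18, adjusted p = 0.0344). All 7 slopes were below 0, with 5 genes at an unadjusted p under 0.05, 5 by DESeq2 and 1, Ifngr2, by limma-voom, where Jak2 had an adjusted p of 0.0522. Neither passed under total count scaling (Ifngr2 -0.52, adjusted p = 0.21; Jak2 -0.06, adjusted p = 0.832), where 4 of the 7 slopes were above 0. Of the class I presentation genes 0 of 10 passed, with slopes from -0.87 to 0.18, 5 at an unadjusted p under 0.05, 2 by DESeq2 and 0 by limma-voom. Of these slopes 3 of 10 were above 0, against 8 of 10 under total count scaling, where 3 passed, so no direction is given for the list. Without controls 2, 8 and 12 none of the called genes of the pathway and marker lists passed, with adjusted p from 0.0637 (RT1-DOa, slope 0.94) to 0.63 (Jak2, slope -0.42). With run code as a factor Cd40 (adjusted p = 0.226), Cd180 (0.148), Flt3 (0.0856) and RT1-Ha (0.0696) did not pass, and RT1-DOa, RT1-Db2, Ly86, Ifngr2, Jak2 and Xbp1 did. In that fit Ifngr1, Irf1 and Tap1 were among the further genes that fell, with slopes of -1.33, -1.18 and -1.05 and adjusted p of 0.0302, 0.0203 and 0.0337.

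**Figure D4:**
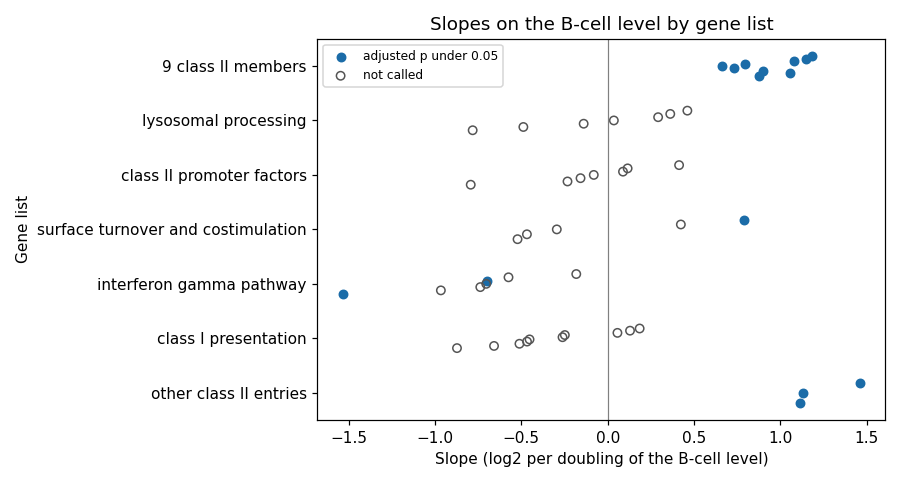
Slopes (log2 per doubling of the B-cell level) of the 9 class II genes and of 6 lists of related genes, 1 point a gene, filled where the adjusted p was under 0.05. The class II genes and the 3 other class II entries lie between 0.66 and 1.46, and the class I presentation genes between -0.87 and 0.18.

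Neighbouring genes on the chromosome were also set side by side. In RefSeq order the stretch from RT1-Da to RT1-DMa holds 12 protein-coding genes, of which 8 are class II genes. Tap2, Psmb8, Tap1 and Psmb9, which serve class I presentation, lie between RT1-DOb and RT1-DMb. Their slopes were -0.26 ± 0.28, 0.13 ± 0.16, -0.66 ± 0.25 and -0.45 ± 0.20, and none passed (adjusted p = 0.569, 0.62, 0.114 and 0.158). Tap1 passed by DESeq2 (-0.68, adjusted p = 0.0386) and with run code as a factor (-1.05, adjusted p = 0.0337). The flanking RT1-DOb and RT1-DMb had 1.08 ± 0.15 and 0.79 ± 0.13. The difference between the 4 genes and their neighbours was not tested. Under total count scaling Psmb8 had a slope of 0.42 (adjusted p = 0.0185), close to the median of all genes of 0.40.

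Ratios within a library do not depend on scaling, and they show which class II genes moved together. These ratios were chosen after the data had been seen and are given as a description. RT1-Da and RT1-Ba, the alpha chains of the 2 surface molecules, had the most constant ratio of the 36 pairs, 1.53 to 1.99, with an SD of 0.10 on the log2 scale, while the levels of these genes had SDs of 0.47 and 0.46. The r of their levels was 0.978. The alpha chains followed their own beta chains less closely. RT1-Da over RT1-Db1 ranged from 1.69 in control 15 to 2.88 in control 5 (SD of the log2 ratio 0.29), and RT1-Ba over RT1-Bb ranged from 1.39 in control 11 to 3.64 in control 3 (SD 0.40). The ratio of the RT1-DM chains, RT1-DMa over RT1-DMb, ranged from 0.418 to 0.674 (SD 0.22). The ratio of Cd74 to Ciita varied from 23.9 in control 6 to 70.5 in control 2 (SD 0.44).

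Over all 36 pairs the r of log2 levels had a median of 0.774 and ran from 0.546, for RT1-Da with Ciita, to 0.978. In 31 pairs the log2 ratio varied less than either level. Of the 8 other members, 5 to 7 lay among the 1% of genes most like RT1-Da, RT1-Db1, RT1-Ba, RT1-Bb, RT1-DMb, RT1-DOb or Cd74 by Pearson's r over 8672 genes, 4 did so for RT1-DMa and 0 for Ciita. These correlations share libraries and scaling and are given without a test.

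**Figure D5:**
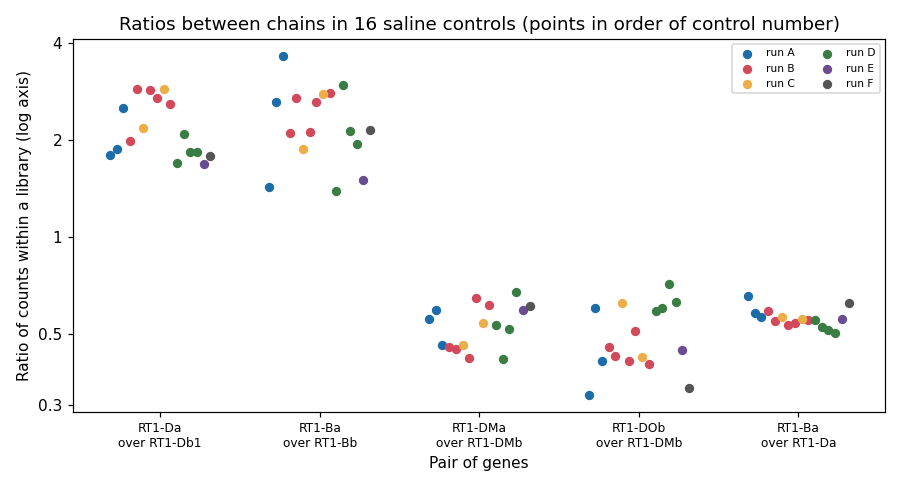
Ratios of normalized counts within a library (log axis) for 5 pairs of class II genes in the 16 saline controls, coloured by run code. Points of RT1-Ba over RT1-Da lie close together, from 0.503 to 0.654, and those of RT1-Ba over RT1-Bb spread from 1.39 to 3.64.

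The 5 genes outside the 9 that were most like Cd74 over 16 libraries were GSTA6 (r = 0.969), Ell3 (0.962), IGH-6 (0.942), Fcrla (0.936) and Cd79b (0.928). IGH-6 is the constant region of the immunoglobulin mu heavy chain, Fcrla an Fc receptor-like gene of B cells and Cd79b the signalling chain of the B-cell receptor. The 5 most like Ciita were Vav2 (r = 0.963), Inadl (0.958), Myo1e (0.953), Swap70 (0.936) and Myo1c (0.930). Vav2 is a guanine nucleotide exchange factor, Swap70 a signalling protein of activated B cells, and Myo1e and Myo1c are class I myosins. None of the 5 genes most like Cd74 was among the 5 most like Ciita.

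Run codes were compared for the 12 libraries of runs A (n = 3), B (n = 5) and D (n = 4), as a check of stability. The codes come from file names, and what they stand for is not given in the sources used here. Whether they follow the study's repeated experiments is not given in the labels. Differences between codes may include differences between experiments, and this was not tested. In each comparison 0 of 9 class II genes passed the edgeR test. Cd74 averaged 35078 ± 14202 in run A, 19809 ± 7630 in run B and 25083 ± 7203 normalized counts in run D (SD), and the ranges of the 3 runs overlapped. RT1-Db1 averaged 4354 ± 1618, 2570 ± 850 and 4323 ± 1072, also with overlapping ranges. The change from run A to run B was -0.42 to -0.83 on the log2 scale over the 9 genes, with 3 at an unadjusted p under 0.05 and the lowest adjusted p at 0.307. Under total count scaling it was -0.92 to -1.28, where the median of all genes was -0.50. Here edgeR called 0% of 12952 genes, with 1755, or 13.6%, at an unadjusted p under 0.05, and DESeq2 called 563 genes, or 4.35%, and 0 of the 9.

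From run A to run D the changes were -0.48 to 0.24, with 0 of 9 genes and 5.41% of all genes at an unadjusted p under 0.05. The edgeR test called 0% and DESeq2 14 genes, or 0.108%, none of the 9. From run B to run D the changes were 0.20 to 0.81, and 0.76 to 1.33 under total count scaling, where the median of all genes was 0.53. The edgeR test called 2.3% of genes and none of the 9, 2 of which, RT1-DOb and RT1-Db1, had an unadjusted p under 0.05, where 11.3% of all genes did. For RT1-DOb the difference was 0.81 ± 0.28 (p = 0.0138, adjusted p = 0.205), and DESeq2 called 742 genes, or 5.73%, and 0 of the 9.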

How the data were processed

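RNA-seq of globin-depleted, polyadenylated RNA from whole blood was available for 16 saline controls. The authors aligned paired-end reads with Bowtie 0.12.9 to a transcriptome of rat build rn5 and deposited expected counts per gene from RSEM 1.2.0, which divides reads that fit several transcripts; base calls came from CASAVA 1.8.2, per the submitters' processing notes. The expected counts are not normalized, and they were rounded here to whole numbers. The tables were restricted to the 18031 genes that all 16 files list, and the remaining genes of the 26405 found in any file were not used here. The members and gene lists were chosen with earlier results of these data known.

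Slopes were fitted with edgeR 4.0.16 in R 4.3.3 (TMM, filterByExpr, quasi-likelihood F-test), leaving the genes of the marker level out of the test, with Benjamini-Hochberg adjustment over all genes tested and a threshold of 0.05. The SE is the slope divided by the square root of F. DESeq2 1.42.0 gave size factors and, with limma 3.58.1, alternative tests. Marker levels are means of log2(normalized count + 1), and not every gene in them is reported here. Correlations used 100000 permutations, two-sided. The code was tested on simulated data. No 2 libraries agreed within sampling noise (lowest chi-square per degree of freedom 48.0). Floors cover counting error only, while the SD and SE include the spread among animals.

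Named genes were, by rule, the 9 members, the 5 genes most like Cd74 and the 5 most like Ciita (with a symbol and a mean of at least 100 normalized counts), and up to 3 called genes per pathway list. Values given for further list genes were chosen after the data had been seen. Of the fixed lists, Cd79a, Ccr2, Ctsl, Icosl and Nlrc5 were not used here. Alternatives tried were other scalings, filters, tools, covariates, B-cell genes and left-out controls. Proteins were not analysed here. Permutations ran in numpy 2.4.6 under Python 3.11.15, with ranks from scipy 1.17.1, and figures were drawn with matplotlib 3.10.9.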

Additional observations from a re-analysis of the deposited data

How the results depend on the processing

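Every slope of the 9 genes on the B-cell level, alone or beside the T-cell level, stayed above 0 under each alternative run. Of 468 values of single genes under an alternative, 420 kept direction and side of the threshold, 40 lost the call and 8 gained it. On the B-cell level the 9 calls among the members became 2 without controls 2, 8 and 12, and 6 to 9 with 1 control left out. RT1-Bb alone lost its call with the study's B-cell genes (adjusted p = 0.0528), with the globin share as covariate (0.0721) and without a filter (0.0678). Calls over all genes were 786, and 1658 by DESeq2, 5716 under total count scaling, 47 without controls 2, 8 and 12, and 95 to 1798 with 1 control left out (335 without control 2, 277 without 3, 1798 without 4, 509 without 6, 460 without 7, 95 without 8, 494 without 12, 1229 without 13 and 436 without 14). Summing the twin entries of RT1-DMa and RT1-DMb, an alternative added after seeing the data, gave 783 calls and 9 members. Beside the T-cell level, calls among the members were 7, became 2 with run code as a factor and 5 to 8 with 1 control left out. Calls over all genes there were 227, and 1147 by DESeq2, 424 under total count scaling, 19 with run code as a factor and 81 to 472 with 1 control left out (142 without control 2, 472 without 4, 81 without 6, 147 without 7 and 97 without 8). On the monocyte level the 2 calls became 216 by DESeq2, 428 under total count scaling, 0 with run code as a factor and 0 to 126 with 1 control left out (126 without control 4). Between runs B and D the 2.3% of genes called became 5.73% by DESeq2, 1.16% without a filter, 0.0463% under total count scaling and 0.0155% to 5.44% with 1 control left out (5.44% without control 4, 0.737% without 7, 0.457% without 10, 0.211% without 12, and 0.0155% to 0.0233% without 5, 11, 13 or 14). Between runs A and B, where none was called, DESeq2 called 4.35% and leaving out 1 control gave 0% to 3.93% (3.93% without control 4). Between runs A and D DESeq2 called 0.108% and leaving out 1 control gave 0% to 0.015%. The 8 members called by Pearson's r became 4 without controls 6 and 8. The median coefficient of variation of the 9 genes, 31.5%, was 40.7% under total count scaling. The causes of these changes were not tested. Fits that left out controls also had fewer libraries. No paired analysis was possible because the 16 animals form 1 group with no numbers shared between groups.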

Other observations

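Chain ratios were also read by run code, after the data had been seen and without a test. This was done for 5 of the 36 pairs, so the share of pairs whose ranges did not overlap between runs is not known. RT1-DOb over RT1-DMb, the chain of the RT1-DM inhibitor over a chain of RT1-DM, was 0.588 to 0.716 in the 4 libraries of run D and 0.401 to 0.511 in the 5 of run B, which did not overlap. Run A had 0.323 to 0.601 and run C 0.425 to 0.623, so each overlapped both. Controls 15 and 16, of runs E and F, had 0.445 and 0.338, below the range of run D. RT1-Da over RT1-Db1 was 1.98 to 2.88 in run B, 2.18 to 2.88 in the 2 libraries of run C and 1.70 to 2.08 in run D, where runs B and D overlapped. RT1-Ba over RT1-Da was 0.564 to 0.654 in run A and 0.503 to 0.551 in run D. Run code, date of experiment and animal cannot be told apart in these ratios, and the alleles that the animals carried were not analysed here.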
